A study of Saccharomyces cerevisiae Vin13 with 18 samples.

Results

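The mannoproteins of the yeast cell wall, together with the seripauperins that resemble them, were followed in the wine strain VIN13 of Saccharomyces cerevisiae through Chardonnay fermentations at 2 scales. The genes were taken by symbol: all those named PAU followed by a number, and 21 further genes. These 21 were TIR1, TIR2, TIR3, TIR4, DAN1, DAN4, TIP1, CWP1, CWP2, SED1, SPI1, CCW12, CCW14, PIR1, PIR3, HSP150, CIS3, SRL1, YGP1, PST1 and ECM33. The names cover 45 of the 6477 genes of the RefSeq R64 annotation, 24 of them seripauperins. A probe set with a listed gene was present for 34 of the 45, out of 5449 genes measured. All 21 of the further genes were among them, and 13 seripauperins: PAU2, PAU3, PAU4, PAU5, PAU7, PAU8, PAU9, PAU14, PAU17, PAU18, PAU21, PAU23 and PAU24. The other 11 seripauperins (PAU1, PAU6, PAU10, PAU11, PAU12, PAU13, PAU15, PAU16, PAU19, PAU20 and PAU22) were not analysed here.

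Every group was the same strain in the same must, inoculated to an OD600 of 0.1 and kept at 20 °C. Vials held 80 ml and are described as microaerobic, and commercial tanks held 300 L. The labels name no measured oxygen level. Sampling was on day 2, when cells grew exponentially, on day 5, early in stationary phase, and on day 10, late in it. With 3 biological replicates at each scale and day there were 6 groups and 18 arrays. The comparisons ask how transcript levels differed between tanks and vials on a given day, how they moved over time at either scale, and whether the scales differed in those movements.

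The wall of S. cerevisiae is a layer of glucan covered by mannoproteins, which are secreted proteins that carry many mannose chains. Some are held to glucan through the remnant of a GPI lipid anchor, whereas the PIR proteins, named for their internal repeats, are linked to glucan directly. The coat changes with oxygen: in laboratory strains CWP1 and CWP2 are major proteins of aerobic cells, and the TIR and DAN proteins take their place without oxygen. Seripauperins form a large family of short genes that lie mainly near chromosome ends. They resemble the TIR proteins but are poor in serine, are known for high expression during alcoholic fermentation, and have no well understood function.

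The array summarises each gene by a probe set, and the ending of its name tells how far its probes are shared: _at for probes of 1 transcript, _s_at for probes that match several, and _x_at for sets with some probes that also match other sequences. All 21 further genes were read by _at sets. Of the 13 seripauperins only PAU17 was, while PAU3 and PAU21 were read by _s_at sets and the other 10 by _x_at sets. The value of a single seripauperin may therefore hold signal from its near copies, including the ones not listed, and the 13 are not independent readings.

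All 34 genes lay above a background of 4.40 (log2 intensity, taken from probe sets of the fission yeast) on all 18 arrays. Signals, and the differences between them, are given on the log2 scale throughout. Many of the genes were bright: 4 seripauperins and 7 of the others had a group mean within 0.5 of the brightest signal on the array, 15.27, as did 32 genes outside the 34. Arrays of a group correlated at 0.990 or more across genes, except in tanks on day 10, where the lowest correlation was 0.974 and replicate 2 stood apart. Without that array 13 seripauperins and 15 of the others were called on day 10, the same numbers as with it.

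The seripauperins were higher in tanks than in vials on all 3 days. On day 2 all 13 were higher, by a median of 0.71, on day 5 12 were higher, with a median over the 13 of 1.57, and on day 10 all 13 were higher again, by a median of 1.23. Over all 5449 genes tested the medians were -0.01, 0.02 and 0.03. The share of all genes called higher in tanks was 38.2% on day 2, 33.1% on day 5 and 32.3% on day 10, and the share called lower was 39.1%, 28.8% and 26.4%. The test was limma's, with a Benjamini-Hochberg adjusted p under 0.05. In bulk RNA, a change in the number of cells of a kind and a change in RNA per cell cannot be told apart.

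Being higher on every one of the 3 days was called for 12 of the 13 seripauperins, or 92.3%, and for 17.2% of all genes. The exception was PAU21, which was higher on days 2 and 10 and differed by 0.27 on day 5 (adjusted p = 0.106). Among the 21 other wall genes 10 were higher on all 3 days, or 47.6%: the 4 TIR and 2 DAN genes, CIS3, HSP150, CCW14 and PST1. SRL1 was higher on one day and lower on another, and YGP1 was called on none.

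**Figure D1:**
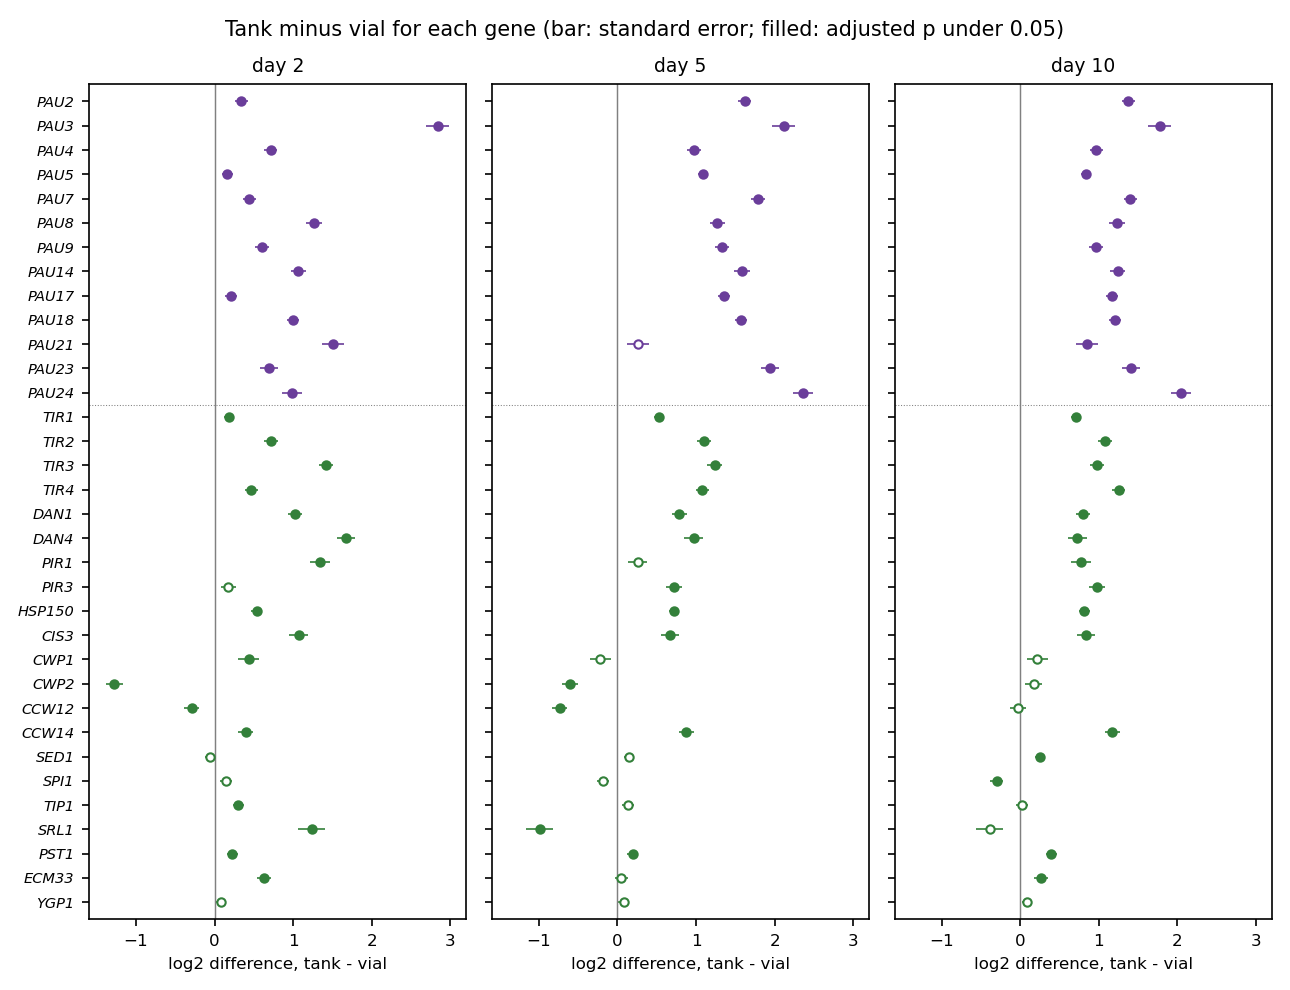
Difference between tanks and vials (log2, tanks minus vials, vertical zero line) for each of the 34 genes on days 2, 5 and 10, with standard errors; filled marks are differences with an adjusted p under 0.05. The 13 seripauperins lie to the right of zero on each day, with PAU3 at 2.84 on day 2 and PAU24 at 2.37 on day 5, whereas the other wall genes lie on both sides.

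PAU3 showed the widest gap on day 2. In vials PAU3 read 10.47, 10.50 and 10.43 on day 2, 11.96, 11.41 and 11.65 on day 5 and 11.96, 11.94 and 12.34 on day 10. In tanks PAU3 read 13.06, 13.55 and 13.31 on day 2, 13.69, 13.72 and 13.97 on day 5 and 13.82, 13.78 and 13.96 on day 10. The tank arrays were above all vial arrays on every day, and the vial values were lowest on day 2. The differences between scales were 2.84 ± 0.15 (adjusted p = 1.22e-10) on day 2, 2.12 ± 0.15 (adjusted p = 8.73e-09) on day 5 and 1.78 ± 0.15 (adjusted p = 5.48e-08) on day 10, each with its standard error.

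PAU24 showed the widest gap on days 5 and 10. In vials PAU24 read 13.44, 13.40 and 13.30 on day 2, 12.28, 11.76 and 11.85 on day 5 and 12.12, 12.03 and 12.49 on day 10. In tanks PAU24 read 14.25, 14.43 and 14.42 on day 2, 14.34, 14.34 and 14.31 on day 5 and 14.26, 14.28 and 14.25 on day 10. All 9 tank arrays lay within a narrow band above the vials, whose values were lower on days 5 and 10 than on day 2. The tank excess was 0.99 ± 0.13 (adjusted p = 2.42e-06), 2.37 ± 0.13 (adjusted p = 4.72e-10) and 2.05 ± 0.13 (adjusted p = 2.2e-09) on the 3 days.

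PAU23, PAU7 and PAU2 had the next largest gaps after PAU24 and PAU3 on days 5 and 10, though not on day 2. With the probe sets used, all were wider on day 5 than on day 2. PAU23 also has an _at set, by which its gap was 1.21 on day 2 and 1.23 on day 5. In vials PAU23 read 13.84, 13.91 and 13.71 on day 2, 12.66, 12.17 and 12.44 on day 5 and 12.82, 12.81 and 13.06 on day 10. In tanks PAU23 read 14.57, 14.54 and 14.41 on day 2, 14.40, 14.30 and 14.39 on day 5 and 14.37, 14.21 and 14.35 on day 10. No vial array reached the tanks, and the difference was 0.69 ± 0.11 (adjusted p = 3.08e-05) on day 2 and 1.94 ± 0.11 (adjusted p = 1.18e-09) on day 5. For PAU23 on day 10 it was 1.41 ± 0.11 (adjusted p = 3.81e-08). In vials PAU7 read 13.96, 13.98 and 13.82 on day 2, 12.43, 12.40 and 12.53 on day 5 and 12.79, 12.66 and 12.93 on day 10. In tanks PAU7 read 14.27, 14.34 and 14.48 on day 2, 14.28, 14.16 and 14.29 on day 5 and 14.19, 14.15 and 14.24 on day 10. Here too the groups did not overlap on any day, and PAU7 differed by 0.44, 1.79 and 1.40. In vials PAU2 read 14.63, 14.66 and 14.64 on day 2, 13.40, 13.05 and 13.23 on day 5 and 13.47, 13.40 and 13.57 on day 10. In tanks PAU2 read 14.99, 15.00 and 14.96 on day 2, 14.83, 14.85 and 14.86 on day 5 and 14.88, 14.85 and 14.85 on day 10. The scales were apart on each day, and PAU2 differed by 0.34, 1.62 and 1.38. The highest group mean of PAU2 lay 0.285 below the brightest signal, and the part of the signal range in its gaps was not tested.

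PAU21 followed another course. In vials PAU21 read 8.74, 8.83 and 8.83 on day 2, 9.53, 9.62 and 9.94 on day 5 and 9.92, 9.79 and 9.86 on day 10. In tanks PAU21 read 10.11, 10.34 and 10.48 on day 2, 10.07, 9.97 and 9.85 on day 5 and 11.05, 10.58 and 10.48 on day 10. The scales were apart on days 2 and 10 and overlapped on day 5. The difference was 1.51 ± 0.14 (adjusted p = 5.24e-08) on day 2 and 0.85 ± 0.14 (adjusted p = 7.78e-05) on day 10.

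PAU17 and PAU5 were near the top of the signal range, their highest group means lying 0.094 and 0.251 below the brightest signal. The part of that range in their day 2 gaps was not tested. In vials PAU17 read 14.94, 14.98 and 14.99 on day 2, 13.88, 13.71 and 13.69 on day 5 and 13.88, 13.96 and 14.02 on day 10. In tanks PAU17 read 15.24, 15.18 and 15.11 on day 2, 15.11, 15.15 and 15.08 on day 5 and 15.13, 15.18 and 15.06 on day 10. The tank arrays were above the vials on each day, narrowly on day 2, with differences of 0.20 ± 0.08 (adjusted p = 0.0227), 1.36 ± 0.08 (adjusted p = 7.75e-10) and 1.17 ± 0.08 (adjusted p = 3.38e-09). In vials PAU5 read 14.88, 14.87 and 14.81 on day 2, 13.82, 13.81 and 13.82 on day 5 and 14.07, 14.11 and 14.15 on day 10. In tanks PAU5 read 14.98, 15.03 and 15.03 on day 2, 14.90, 14.87 and 14.94 on day 5 and 14.96, 14.93 and 14.95 on day 10. PAU5 differed by 0.16 ± 0.07 (adjusted p = 0.0312) on day 2, 1.09 on day 5 and 0.84 on day 10. Both day 2 calls were fragile. The PAU17 call was lost without tank replicate 1 (adjusted p = 0.0816), without vial replicate 1 (adjusted p = 0.0702) and with repeated quantile normalization (adjusted p = 0.0826). Apart from a required 2-fold change, that of PAU5 was lost in 8 alternative settings, among them the removal of tank replicate 2 or 3 or vial replicate 2 or 3 (adjusted p from 0.0544 to 0.104).

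The remaining 5, PAU4, PAU8, PAU9, PAU14 and PAU18, were higher in tanks on all 3 days, with no overlap between the scales. Their differences ran from 0.61 to 1.26 on day 2, from 0.98 to 1.59 on day 5 and from 0.96 to 1.24 on day 10. PAU8 kept nearly the same gap throughout, at 1.26, 1.27 and 1.23.

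**Figure D2:**
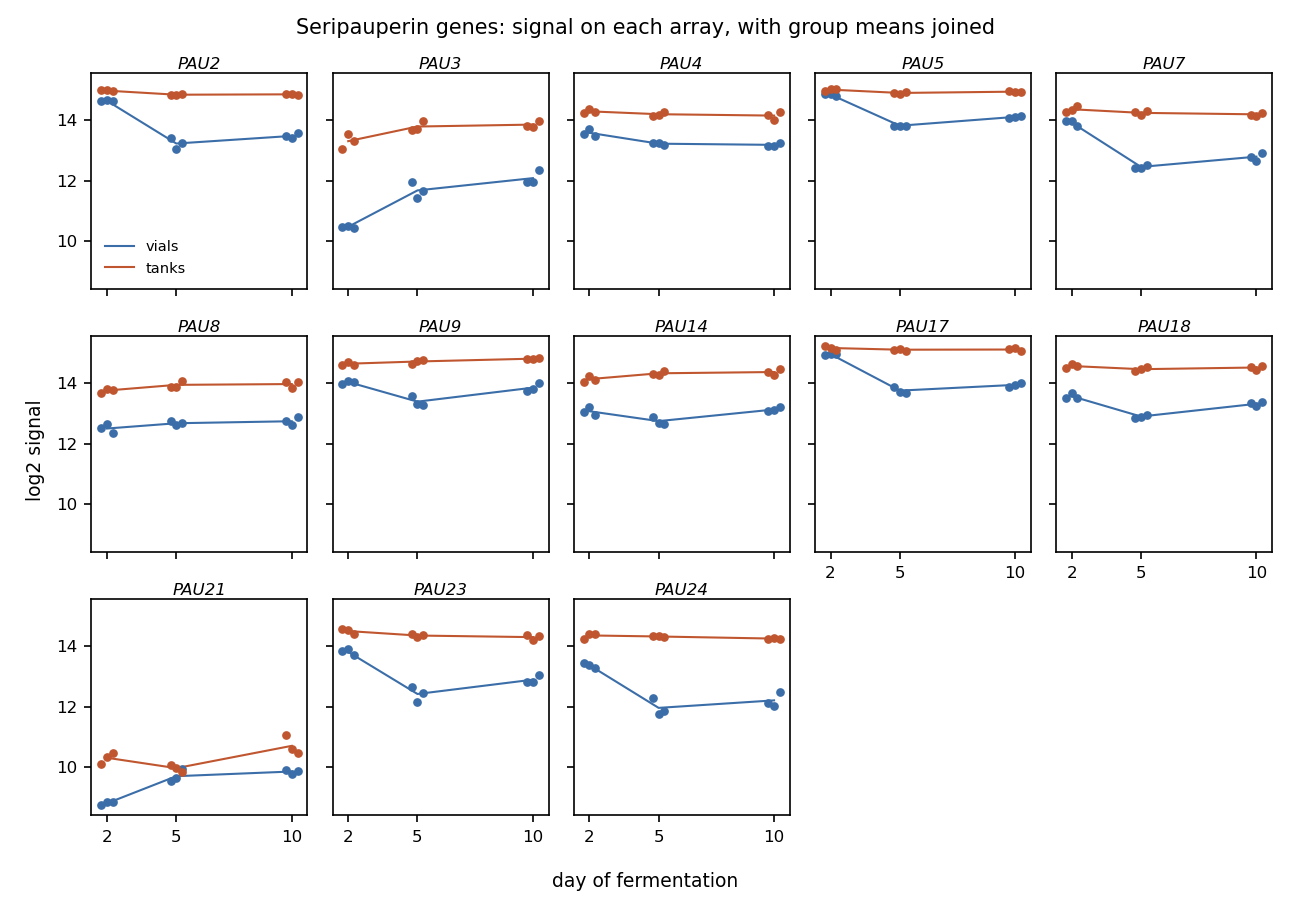
Log2 signal of the 13 seripauperins against day of fermentation in vials and tanks; points are arrays (3 per group, spread sideways to be seen) and lines join group means. The tank arrays lie above the vial arrays in all panels except PAU21 on day 5, where they overlap.

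Seripauperins are short genes, with coding lengths from 129 nucleotides in PAU9 to 495 in PAU21, and a median of 363 over the 13. The 632 genes outside the 34 that were no longer than 495 nucleotides were lower in tanks, with medians of -0.48, -0.35 and -0.33 on days 2, 5 and 10. On day 2, 139 of them were higher and 347 lower. The part of transcript length in the seripauperin values was not tested beyond the removal of a length trend, under which all 13 seripauperins were called higher in tanks on each of the 3 days.

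A second reading was possible for PAU5, PAU17 and PAU23, which have both an _at and an _x_at set. For PAU17 and PAU5 both sets gave nearly the same course over the 18 arrays, with correlations of 0.998 and 0.997. For PAU23 the correlation was 0.899, and the shape with time differed. In vials the _at set of PAU23 read 13.22, 13.35 and 13.28 on day 2 and 12.85, 12.96 and 12.99 on day 5. In tanks the same set read 14.60, 14.58 and 14.31 on day 2 and 14.15, 14.24 and 14.10 on day 5. By the unique probes the tanks were above the vials by 1.21, 1.23 and 1.24 on the 3 days, nearly the same gap each time. The change from day 2 to day 5 differed between the scales by 0.01 (adjusted p = 0.943) with the _at set and by 1.25 (adjusted p = 8.57e-06) with the _x_at set. With PAU5 the unique set differed between scales by 0.13 on day 2 (adjusted p = 0.0725), 1.17 on day 5 and 0.86 on day 10.

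**Figure D3:**
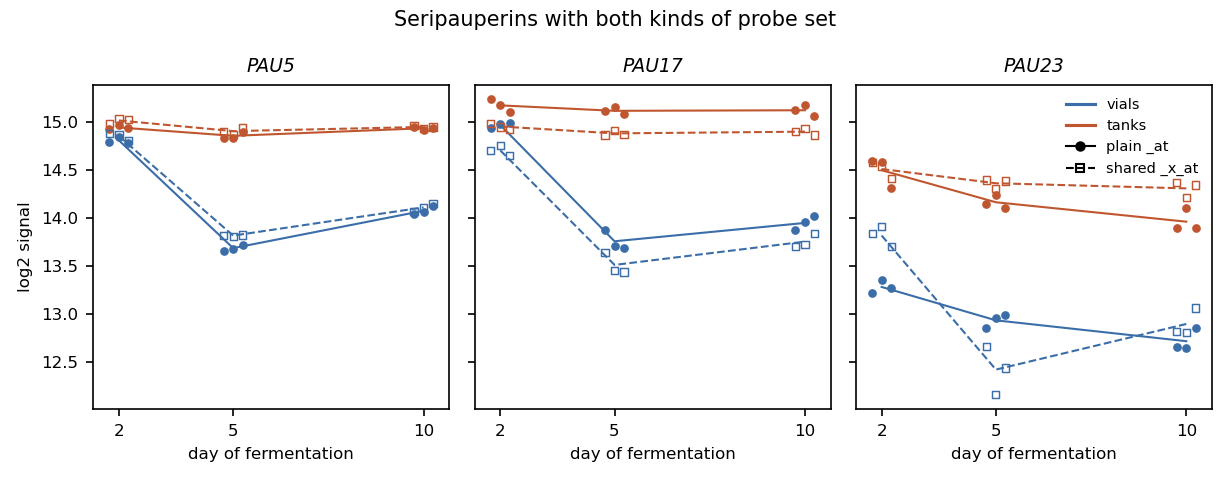
Log2 signal by day for the 3 seripauperins with both a unique (_at) and a partly shared (_x_at) probe set, in vials and tanks; points are arrays and lines join group means. The sets run parallel for PAU5 and PAU17, whereas for PAU23 the fall in vials between day 2 and day 5 is 0.35 with the unique set and 1.39 with the shared one.

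The TIR and DAN genes, mannoproteins of anaerobic cells, were also higher in tanks throughout. All 6 were called higher on each of the 3 days, with medians of 0.87, 1.03 and 0.89, where 38.2%, 33.1% and 32.3% of all genes were called higher. The gap was widest for DAN4 and TIR3 on day 2 and for TIR4 and TIR2 on day 10.

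In vials DAN4 read 9.34, 9.49 and 9.27 on day 2, 9.98, 10.12 and 10.32 on day 5 and 10.03, 10.13 and 10.34 on day 10. In tanks DAN4 read 11.08, 11.14 and 10.89 on day 2, 11.13, 11.21 and 10.99 on day 5 and 10.79, 11.10 and 10.80 on day 10. The DAN4 gap narrowed with time, from 1.67 ± 0.12 (adjusted p = 3.3e-09) on day 2 through 0.97 to 0.73 ± 0.12 (adjusted p = 7.54e-05) on day 10, with no overlap on any day. In vials TIR3 read 13.10, 13.31 and 13.16 on day 2, 13.22, 13.07 and 13.13 on day 5 and 13.22, 13.21 and 13.49 on day 10. In tanks TIR3 read 14.60, 14.64 and 14.59 on day 2, 14.39, 14.43 and 14.32 on day 5 and 14.25, 14.39 and 14.22 on day 10. TIR3 differed by 1.42 ± 0.09 (adjusted p = 1.08e-09), 1.24 and 0.98 ± 0.09 (adjusted p = 1.62e-07), again without overlap. In vials DAN1 read 13.61, 13.74 and 13.64 on day 2, 13.64, 13.87 and 13.90 on day 5 and 13.54, 13.33 and 13.50 on day 10. In tanks DAN1 read 14.71, 14.62 and 14.72 on day 2, 14.67, 14.66 and 14.44 on day 5 and 14.24, 14.32 and 14.21 on day 10. DAN1, the neighbour of DAN4 on chromosome X, differed by 1.02, 0.79 and 0.80 ± 0.09 (adjusted p = 2.41e-06).

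TIR1, TIR2 and TIR4 had wider gaps on days 5 and 10 than on day 2. The highest group means of TIR1 and TIR4 lay 0.409 and 0.473 below the brightest signal. The part of the signal range in their gaps was not tested. In vials TIR4 read 14.17, 14.34 and 14.09 on day 2, 13.65, 13.70 and 13.78 on day 5 and 13.29, 13.19 and 13.40 on day 10. In tanks TIR4 read 14.69, 14.66 and 14.65 on day 2, 14.83, 14.82 and 14.73 on day 5 and 14.55, 14.61 and 14.48 on day 10. The tank excess of TIR4 was 0.47 ± 0.08 (adjusted p = 7.59e-05) on day 2, 1.08 on day 5 and 1.25 ± 0.08 (adjusted p = 4.36e-09) on day 10. In vials TIR2 read 13.79, 13.91 and 13.79 on day 2, 13.76, 13.54 and 13.51 on day 5 and 13.38, 13.39 and 13.66 on day 10. In tanks TIR2 read 14.55, 14.52 and 14.56 on day 2, 14.71, 14.74 and 14.68 on day 5 and 14.54, 14.60 and 14.53 on day 10. TIR2, next to TIR4 on chromosome XV, differed by 0.71, 1.11 and 1.08. In vials TIR1 read 14.65, 14.69 and 14.67 on day 2, 14.19, 14.29 and 14.24 on day 5 and 13.97, 13.94 and 14.03 on day 10. In tanks TIR1 read 14.89, 14.85 and 14.83 on day 2, 14.80, 14.77 and 14.74 on day 5 and 14.68, 14.72 and 14.67 on day 10. TIR1, which is also induced by cold, differed by 0.18 ± 0.07 (adjusted p = 0.0185), 0.53 and 0.71. Its day 2 call was lost without tank replicate 1 (adjusted p = 0.0546), without vial replicate 1 (adjusted p = 0.0582) and with repeated quantile normalization (adjusted p = 0.0603).

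Of 4 PIR genes, 3 were called higher in tanks on day 2, 3 on day 5 and 4 on day 10. Their median differences were 0.80, 0.70 and 0.83, and 38.2%, 33.1% and 32.3% of all genes were called higher on those days. CIS3 was higher by 1.07, 0.67 and 0.84, and HSP150, a secreted member induced by heat, by 0.54, 0.72 and 0.82. In vials PIR1 read 11.13, 11.23 and 11.34 on day 2, 11.43, 11.55 and 11.41 on day 5 and 11.44, 11.49 and 11.64 on day 10. In tanks PIR1 read 12.65, 12.59 and 12.47 on day 2, 11.80, 11.88 and 11.48 on day 5 and 12.47, 12.41 and 12.00 on day 10. PIR1 was apart on days 2 and 10 and overlapped on day 5, with differences of 1.34 ± 0.13 (adjusted p = 6.05e-08), 0.26 ± 0.13 (adjusted p = 0.0852) and 0.77 ± 0.13 (adjusted p = 7.25e-05). Its neighbour PIR3 was not called on day 2, at 0.18 ± 0.10 (adjusted p = 0.119), and was higher on days 5 and 10 by 0.72 and 0.98.

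The other 11 wall and secreted proteins were split. On day 2, 6 were higher in tanks and 2 lower, on day 5, 2 were higher and 3 lower, and on day 10, 4 were higher and 1 lower. Their medians were 0.23, 0.05 and 0.17. The shares of all genes called higher on those days were 38.2%, 33.1% and 32.3%, and the shares called lower were 39.1%, 28.8% and 26.4%.

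CWP2 and CCW12 were lower in tanks on days 2 and 5. In vials CWP2 read 13.67, 13.62 and 13.83 on day 2, 14.20, 13.98 and 13.78 on day 5 and 13.60, 13.66 and 13.69 on day 10. In tanks CWP2 read 12.41, 12.55 and 12.33 on day 2, 13.37, 13.49 and 13.29 on day 5 and 13.87, 13.90 and 13.70 on day 10. CWP2, a major protein of the aerobic wall, was below every vial array on day 2 and day 5, at -1.27 ± 0.11 (adjusted p = 1.58e-08) and -0.60 ± 0.11 (adjusted p = 0.000124), and differed by 0.17 ± 0.11 (adjusted p = 0.175) on day 10. The day 5 call was lost with the length trend removed (-0.21, adjusted p = 0.162). CWP1, next to CWP2 on chromosome XI and a protein of birth scars, was higher on day 2 by 0.43 ± 0.13 (adjusted p = 0.00728) and differed by -0.21 and 0.22 on days 5 and 10, where the scales overlapped.

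In vials CCW12 read 14.52, 14.56 and 14.56 on day 2, 14.67, 14.63 and 14.47 on day 5 and 14.65, 14.56 and 14.65 on day 10. In tanks CCW12 read 14.06, 14.41 and 14.29 on day 2, 13.91, 13.96 and 13.69 on day 5 and 14.68, 14.57 and 14.53 on day 10. CCW12, an abundant mannoprotein of young buds, was lower in tanks on day 5, at -0.73 ± 0.10 (adjusted p = 9.82e-06), and differed by -0.03 ± 0.10 (adjusted p = 0.835) on day 10. Its day 2 difference of -0.29 ± 0.10 (adjusted p = 0.0128) turned to 0.26 (adjusted p = 0.0394) with the length trend removed, and was not called without tank replicate 1 (-0.19, adjusted p = 0.0868) or with arrays centred on their medians (-0.22, adjusted p = 0.0535).

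SRL1, a mannoprotein thought to act with CCW12, changed direction between days. In vials SRL1 read 10.60, 10.69 and 10.95 on day 2, 12.18, 11.70 and 11.58 on day 5 and 11.10, 11.12 and 11.64 on day 10. In tanks SRL1 read 11.80, 12.18 and 11.97 on day 2, 10.91, 10.85 and 10.74 on day 5 and 10.66, 11.10 and 10.94 on day 10. The tanks were above the vials on day 2 and below them on day 5, without overlap, and the groups overlapped on day 10. The differences were 1.24 ± 0.17 (adjusted p = 5.29e-06), -0.99 ± 0.17 (adjusted p = 0.00012) and -0.38 ± 0.17 (adjusted p = 0.0639).

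CCW14, a glycoprotein of the inner wall, was higher in tanks on all 3 days. In vials CCW14 read 13.93, 13.99 and 13.89 on day 2, 13.75, 13.87 and 13.85 on day 5 and 13.62, 13.23 and 13.50 on day 10. In tanks CCW14 read 14.28, 14.43 and 14.28 on day 2, 14.70, 14.76 and 14.62 on day 5 and 14.66, 14.68 and 14.53 on day 10. No day had overlapping groups, and the difference was 0.40 ± 0.10 (adjusted p = 0.00119), 0.87 ± 0.10 (adjusted p = 1.24e-06) and 1.17 ± 0.10 (adjusted p = 4.47e-08). PST1, a GPI protein induced by wall damage, was higher by 0.23, 0.19 and 0.40. Its day 5 call was lost without tank replicate 2 or 3 or vial replicate 1 (adjusted p from 0.062 to 0.121), with repeated quantile normalization, and in the fit of the compared groups alone. With the length trend removed its calls on days 2 and 5 were both lost (adjusted p = 0.273 and 0.655).

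ECM33, a GPI protein needed for wall organisation, was higher on day 2 by 0.63 ± 0.09 (adjusted p = 4.56e-06) and differed by 0.05 on day 5. On day 10 it was higher by 0.27 ± 0.09 (adjusted p = 0.0145), a call lost without tank replicate 2 (adjusted p = 0.0839) or vial replicate 2 (adjusted p = 0.0809), with the length trend removed and in the fit of the compared groups alone. TIP1, a mannoprotein induced by cold and heat, was higher on day 2 by 0.30 ± 0.07 (adjusted p = 0.00131) and differed by 0.14 and 0.02 later.

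SED1, SPI1 and YGP1 had highest group means 0.14, 0.201 and 0.225 below the brightest signal. The part of that range in their differences was not tested. SED1, an abundant protein of stationary cells, differed by -0.06 and 0.15 on days 2 and 5 and was higher on day 10 by 0.25 ± 0.07 (adjusted p = 0.00423). SPI1, induced by weak acids and in stationary phase, differed by 0.14 and -0.18 and was lower on day 10, at -0.30 ± 0.08 (adjusted p = 0.00475). The SED1 call was lost with the length trend removed (adjusted p = 0.0615) and in the fit of the compared groups alone (adjusted p = 0.0568), and the SPI1 call with the length trend removed (-0.09, adjusted p = 0.459). YGP1, a secreted glycoprotein made under nutrient limitation, differed by 0.08, 0.08 and 0.09 and was called on no day.

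**Figure D4:**
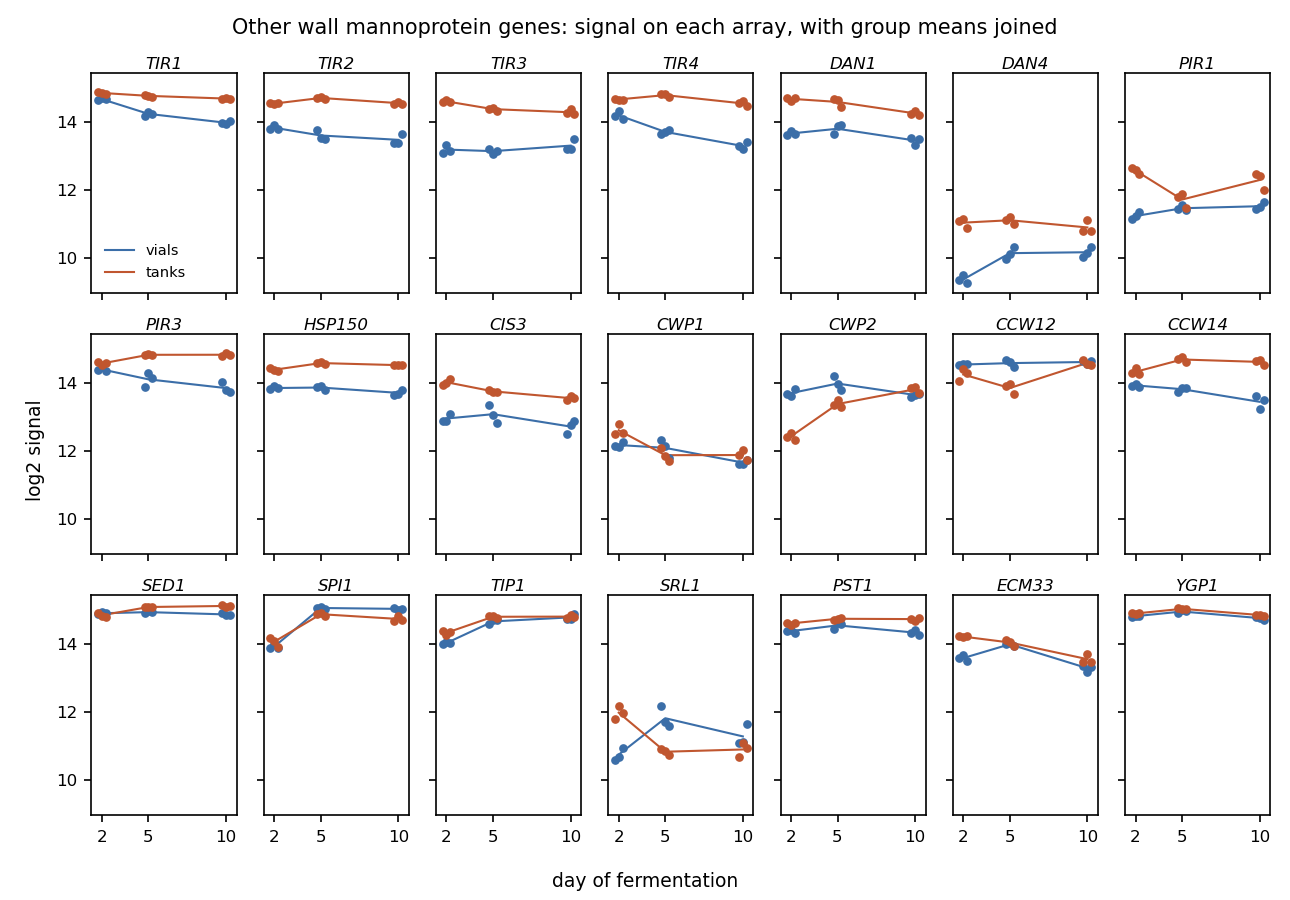
Log2 signal of the 21 other wall genes against day of fermentation in vials and tanks; points are arrays and lines join group means. Tank arrays lie above vial arrays on every day for the TIR and DAN genes, CWP2 and CCW12 start lower in tanks, and the SRL1 lines cross between days 2 and 5.

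With time, most seripauperins fell in vials after day 2. From day 2 to day 5 in vials 10 of the 13 fell, 2 rose and PAU8 was not called, and the median was -0.67 against -0.16 over all genes. Of all genes 41.1% fell and 26.5% rose. In tanks over the same days 1 rose, 1 fell and 11 were not called, with a median of -0.10, where 39.1% of all genes fell and 34.2% rose. The tank count depended on the setting: with the length trend removed 6 fell and 1 rose, and with a trended, robust prior 2 fell and 2 rose.

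The falls in vials were steepest for PAU7, which fell by 1.47, and for PAU24 and PAU2, which both fell by 1.42 (adjusted p = 5.81e-08 for PAU24 and 4.21e-10 for PAU2). PAU23 fell by 1.39, PAU17 by 1.21 and PAU5 by 1.03. With its unique probe set PAU23 fell by 0.35. PAU18, PAU9, PAU4 and PAU14 fell by 0.67, 0.65, 0.36 and 0.33. The risers were PAU3, at 1.21 ± 0.15 (adjusted p = 1.99e-06), and PAU21, at 0.90 ± 0.14 (adjusted p = 2.55e-05), the genes read by _s_at sets.

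In tanks PAU3 rose from day 2 to day 5 by 0.49 ± 0.15 (adjusted p = 0.00732) and PAU21 fell by 0.34 (adjusted p = 0.0348), a call lost with quantile normalization and when replicate 2 or 3 of tank day 2 or of tank day 5 was left out (adjusted p from 0.0664 to 0.141). The other 11 had changes between -0.15 and 0.19.

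From day 5 to day 10 in vials 8 of the 13 seripauperins rose, by 0.25 to 0.47, with a median over the 13 of 0.29 against -0.08 over all genes, of which 11.3% rose and 19.5% fell. They were PAU2, PAU3, PAU5, PAU7, PAU9, PAU14, PAU18 and PAU23. With the length trend removed limma called 4. The calls of PAU2, PAU3, PAU7 and PAU9 were lost then (adjusted p from 0.0724 to 0.137). The call of PAU3, at 0.41 ± 0.15 (adjusted p = 0.0464), was lost with the replicate block (adjusted p = 0.0527) and in 13 of the 18 fits that leave out 1 array. Only vial day 5 replicate 1, tank day 2 replicates 1 and 2, tank day 5 replicate 3 and tank day 10 replicate 2 could be left out without losing it. The call of PAU2 was lost without vial day 5 replicate 2 or 3 or vial day 10 replicate 1 or 3 (adjusted p from 0.0501 to 0.162), and that of PAU23 with its unique probe set (-0.22, adjusted p = 0.0988). In tanks PAU21 rose by 0.74 ± 0.14 (adjusted p = 0.000642) and no other seripauperin was called, where 15.3% of all genes rose and 23.6% fell.

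Of the 21 other wall genes, 7 rose and 4 fell in vials from day 2 to day 5, where 26.5% of all genes rose and 41.1% fell. In tanks 7 rose and 6 fell, near the 34.2% and 39.1% of all genes, and the median was 0.13 at each scale. SPI1 rose in both, by 1.14 in vials and 0.81 in tanks, and TIP1 by 0.64 and 0.47. SRL1 rose by 1.07 ± 0.17 (adjusted p = 3.5e-05) in vials and fell by 1.15 (adjusted p = 1.29e-05) in tanks. CWP2 rose by 0.95 ± 0.11 (adjusted p = 4e-07) in tanks, while PIR1 fell there by 0.85 and CWP1 by 0.73. DAN4 rose in vials by 0.77 ± 0.12 (adjusted p = 2.33e-05), and TIR1 and TIR4 fell there by 0.43 and 0.49.

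In vials SPI1 read 13.89, 14.00 and 13.89 on day 2, 15.06, 15.10 and 15.04 on day 5 and 15.06, 15.02 and 15.04 on day 10. In tanks SPI1 read 14.20, 14.10 and 13.92 on day 2, 14.89, 14.93 and 14.83 on day 5 and 14.70, 14.82 and 14.71 on day 10. In vials CWP1 read 12.16, 12.11 and 12.27 on day 2, 12.34, 12.16 and 11.78 on day 5 and 11.63, 11.61 and 11.75 on day 10. In tanks CWP1 read 12.51, 12.78 and 12.54 on day 2, 12.08, 11.86 and 11.70 on day 5 and 11.88, 12.04 and 11.73 on day 10. SPI1 rose after day 2 at both scales with no overlap, whereas CWP1 fell after day 2 in tanks, the vial change being -0.09 (adjusted p = 0.579).

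From day 5 to day 10, 11 of the 21 fell in vials and none rose, where 19.5% of all genes fell and 11.3% rose. Limma gave an unadjusted p under 0.05 to 13 of the 21 there, and the median was -0.22 against -0.08 over all genes. ECM33 fell furthest there, by 0.70 (adjusted p = 2.31e-05), followed by SRL1 at -0.54, CWP1 at -0.43 and TIR4 at -0.42. The calls of SRL1 and CWP1 were lost without vial day 5 replicate 1 or vial day 10 replicate 1 or 2, and that of CWP1 also without vial day 5 replicate 2. The count of 11 was 4 without vial day 10 replicate 2, 6 without vial day 5 replicate 2 and 7 without vial day 10 replicate 1. In tanks 3 rose and 4 fell, near the 15.3% and 23.6% of all genes. CCW12 rose by 0.74 ± 0.10 (adjusted p = 3.49e-05), PIR1 by 0.58 and CWP2 by 0.44. The CWP2 call was lost with the length trend removed (0.25, adjusted p = 0.141). ECM33 fell by 0.49, DAN1 by 0.34, TIR4 by 0.25 and YGP1 by 0.18. The calls of TIR4 and YGP1 were lost without tank day 5 replicate 1 or 2 or tank day 10 replicate 1 or 3 (adjusted p from 0.0653 to 0.107), and that of YGP1 also without tank day 5 replicate 3 (adjusted p = 0.0566).

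The difference between the scales in the change from day 2 to day 5 was called for 11 of the 13 seripauperins. In 9 the change was higher in tanks, and in PAU3 and PAU21 it was lower, and the median was 0.73 against 0.08 over all genes. Of all genes 32.9% were called higher and 25.9% lower. PAU24, at 1.38 ± 0.18 (adjusted p = 1e-05), PAU7, at 1.35 ± 0.12 (adjusted p = 2.89e-07), and PAU2, at 1.28 ± 0.12 (adjusted p = 2.66e-07), led the 9, and PAU21 was lowest at -1.24 ± 0.20 (adjusted p = 6.4e-05). PAU4, at 0.27, and PAU8, at 0.01, were not called. PAU23 was among the 9 by its _x_at set and gave 0.01 with its unique set (adjusted p = 0.943, limma).

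Among the other 21 genes 6 were higher and 8 lower in this comparison, where 32.9% and 25.9% of all genes were. The median was -0.16 against 0.08 over all genes. SRL1, at -2.22 ± 0.24 (adjusted p = 1.74e-06), and PIR1, at -1.08 ± 0.18 (adjusted p = 8.58e-05), were lowest, and CWP2, at 0.67 ± 0.15 (adjusted p = 0.00118), and TIR4, at 0.61 ± 0.12 (adjusted p = 0.000373), highest.

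For the change from day 5 to day 10, limma called none of the 13 seripauperins different between the scales, with 7 at an unadjusted p under 0.05 and values from -0.53 to 0.58. Of all genes 2.62% were called higher and 2.29% lower. With array weights 7 seripauperins were called and with a trended, robust prior 5, all lower. With the length trend removed 3 were called, without vial day 5 replicate 1, 2, and without tank day 10 replicate 2, 1. Of the other 21, CWP2 and CCW12 were higher, at 0.77 ± 0.15 (adjusted p = 0.00578) and 0.71 ± 0.14 (adjusted p = 0.00655).

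Set against the others array by array, the seripauperin mean was further apart between the scales than the mean of the other 21 pooled. Each gene was centred on its mean over the 18 arrays and the centred values were averaged over each set. The seripauperin mean lay between 0.53 and 0.69 on the 9 tank arrays and between -0.996 and -0.245 on the 9 vial arrays. The mean of the other 21 lay between 0.16 and 0.28 in tanks and between -0.36 and -0.07 in vials. The seripauperin mean minus the other mean was -0.05 ± 0.06 (SD, n = 3) in vials on day 2, -0.80 ± 0.10 on day 5 and -0.31 ± 0.04 on day 10. In tanks it was 0.37 ± 0.06, 0.35 ± 0.10 and 0.44 ± 0.11 on the same days. The gap between the sets varied with day in vials by more than the spread between arrays, and in tanks by about that spread. These values describe the 34 genes and carry no test. On day 2 the median tank excess was 0.71 for the seripauperins and 0.87 for the TIR and DAN genes among the others. It was 0.80 for the PIR genes and 0.23 for the remaining 11. On days 5 and 10 the seripauperin medians were 1.57 and 1.23, against 1.03 and 0.89 for the TIR and DAN genes. With _at sets only, which 3 seripauperins have, the set difference in vials on day 2 was 0.34.

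**Figure D5:**
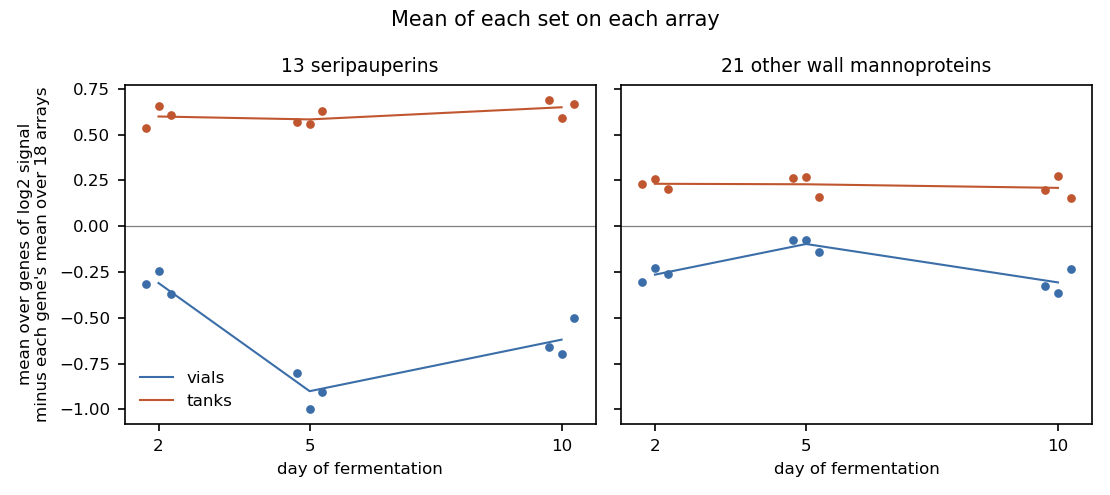
Mean centred log2 signal of the 13 seripauperins and of the 21 other wall genes by day in vials and tanks; points are arrays and lines join group means. The seripauperin points stay between 0.53 and 0.69 in tanks and are lowest, down to -0.996, in vials on day 5.

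Over the 18 arrays, which share scale and day, the correlation between 2 seripauperins had a median of 0.897 over 78 pairs, between 2 of the other genes 0.426 over 210 pairs, and across the sets 0.588 over 273 pairs. Of the 13 seripauperins only PAU17 was read by an _at set, against all 21 of the others. Near copies can share signal, and the part of shared probes in these correlations was not tested. PAU18 was closest to the mean of the family at 0.993, and PAU3 and PAU21 were furthest at 0.734 and 0.539. Of the other genes, TIR2 at 0.964, TIR3 at 0.946, HSP150 at 0.931 and TIR4 at 0.895 had the pattern most like the family mean. CCW12 at -0.558 and CWP2 at -0.55 were least like it.

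Position in the genome, taken from the gene order of RefSeq R64 for the laboratory strain, gave a further description. Of the 24 seripauperins 19 were among the outermost 10 genes of a chromosome, on 14 chromosomes, and 8 of the 13 measured ones were. PAU2, PAU5, PAU7, PAU17 and PAU23 lay further in. Among neighbouring wall genes TIR4 and TIR2 correlated at 0.944 over the 18 arrays, HSP150 and CIS3 at 0.884 and DAN1 and DAN4 at 0.843, whereas PIR1 and PIR3 did at 0.513 and CWP2 and CWP1 at -0.56.

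Of 10 measured regulators of anaerobic wall genes, 2 were higher and 4 lower in tanks on day 2, where 38.2% of all genes were higher and 39.1% lower. On day 5, 3 were higher and 5 lower (33.1% and 28.8% of all genes), and on day 10, 3 were higher and 4 lower (32.3% and 26.4%). In vials ROX1 read 13.14, 13.27 and 13.11 on day 2, 10.51, 10.09 and 10.60 on day 5 and 13.37, 13.59 and 13.66 on day 10. In tanks ROX1 read 6.52, 6.40 and 5.17 on day 2, 7.45, 8.05 and 7.50 on day 5 and 12.98, 11.66 and 11.57 on day 10. ROX1, a heme-dependent repressor of DAN and TIR genes among others, was lower in tanks, at -7.14 (adjusted p = 5.47e-11), -2.73 (adjusted p = 4.97e-06) and -1.47 (adjusted p = 0.00161). MOT3, which represses many of the same genes, differed by -3.46, -0.48 and -0.68, and UPC2, an activator of anaerobic genes, by 0.53, 0.62 and 0.80, all called. Members of the general co-repressor moved apart on day 2, with CYC8 lower at -1.69 and TUP1 higher at 0.59. Tank ROX1 values were higher on day 10 than on day 5. The part of these transcripts in the wall gene values was not tested.

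Of 9 regulators of stress and wall damage 6 were lower in tanks on day 2, where 39.1% of all genes were, with CRZ1 at -1.65, RLM1 at -1.07 and MSN2 at -0.94, and MSN4 higher at 0.30. On days 5 and 10, 4 of the 9 were higher and 2 lower, near the shares of all genes (33.1% and 28.8% on day 5, 32.3% and 26.4% on day 10).

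The enzymes that build and attach mannoproteins were higher in tanks on day 2. All 7 protein O-mannosyltransferases, which add the first mannose in the endoplasmic reticulum, were higher, with a median of 1.32, PMT4 at 1.88, PMT3 at 1.75 and PMT2 at 1.37. Of 29 genes of GPI anchor synthesis and remodelling 25 were higher and 1 lower, with a median of 1.11, LAS21 at 2.07, GWT1 at 2.06 and PER1 at 1.70 against GPI15 at -1.14. Of 23 Golgi mannosyltransferases 14 were higher and 4 lower, KTR3 at 1.73, KTR1 at 1.15 and MNN11 at 1.07 against MNN4 at -1.81, ANP1 at -0.56 and HOC1 at -0.54. Of 8 genes that attach or release wall proteins 7 were higher, the yapsin proteases YPS3, YPS1 and YPS6 leading at 1.67, 1.32 and 1.26. These lists are read against the 38.2% of all genes called higher on that day. The 632 short genes described above had a median of -0.48 then. The lists were not read with the length trend removed, and the part of coding length in them was not tested.

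On days 5 and 10 the share of all genes called higher was 33.1% and 32.3%. Of the genes that attach or release wall proteins 6 of 8 were higher on both days. Of the Golgi mannosyltransferases 10 of 23 were higher on both days, and 0 and 2 were lower. Of the O-mannosyltransferases 4 of 7 were higher on day 5, with a median of 0.31, and on day 10, 3 of 7, with a median of 0.16. Of the GPI genes 10 were higher and 4 lower on day 5 and 10 higher and 3 lower on day 10. In tanks from day 2 to day 5, 25 of 29 GPI genes and 5 of 7 O-mannosyltransferases fell, and 1 of each list rose. Of all genes 39.1% fell and 34.2% rose there.

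Of 15 further wall proteins measured, 11 were higher in tanks on day 2 and 2 lower, with a median of 0.77, where 38.2% and 39.1% of all genes were. EGT2, of daughter cell separation, was at 2.02, TOS1 at 1.77 and the agglutinin SAG1 at 1.67, against the sporulation gene SPS22 at -0.87. SPS2, the other one called lower, was below background at both scales, and without it 1 was lower. On day 5, 5 of the 15 were higher and 3 lower, and on day 10, 6 were higher and 3 lower, near the shares of all genes (33.1% and 28.8%, then 32.3% and 26.4%).

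Marker transcripts of other cell states are set beside these values. On day 2, when 38.2% of all genes were called higher and 39.1% lower, 3 of 5 markers of dividing cells were higher in tanks and 1 lower. The log2 of their summed linear intensities was 12.82 to 12.98 in tanks and 11.63 to 11.71 in vials. In such a sum the brightest markers weigh most. Of 6 markers of stationary cells 1 was higher and 4 lower, with sums of 15.82 to 15.87 in tanks and 16.49 to 16.53 in vials. Of 6 markers of mating-competent haploid cells 5 were higher and 1 lower, with sums of 11.29 to 11.63 in tanks against 10.14 to 10.22 in vials. The sums of the haploid markers were the other way round later. On day 5 they were 10.89 to 11.19 in tanks against 11.86 to 12.06 in vials, with 1 marker higher and 1 lower. On day 10 they were 11.76 to 12.45 against 13.16 to 13.36, with 3 higher and 1 lower. The median difference over the 6 haploid markers was 0.16 on day 5 and 0.25 on day 10, above zero although the sums were lower in tanks. Of 6 sporulation markers 1 was higher and 1 lower on day 2, with sums of 9.83 to 9.98 against 9.42 to 9.59. On day 5, 5 were higher, with sums of 11.0 to 11.13 against 9.99 to 10.24. On day 10, 4 were higher and 1 lower, with sums of 12.31 to 12.7 against 10.9 to 10.97. Of the dividing cell markers 2 were higher and 2 lower on day 5, and 3 higher and 0 lower on day 10. Of the stationary markers 1 was higher and 3 lower on both days. The shares of all genes called higher and lower were 33.1% and 28.8% on day 5 and 32.3% and 26.4% on day 10. None of these markers was at background on all arrays of a group. Their part in the wall gene values was not tested.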

How the data were processed

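Total RNA (100 ng) from washed cells was amplified and labelled with biotin, and 7.5 µg was hybridised to a 1-colour array, per the labels' protocols. The deposited values are probe set intensities on a linear scale, between 4.79 and 39396. The authors made these intensities with the Affymetrix Expression Console and RMA, per the submitters' processing notes, which list no version. RMA corrects background, normalises between arrays and summarises probes, so a shift common to most genes is not visible in these values.

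Log2 of the intensities was taken here. Of 10928 probe sets, 213 controls, 1 with several genes, 3470 without a gene and 1746 taken as fission yeast were left out. The remaining 5498 stood for 5449 genes, and the set with the highest mean was kept for the 47 genes with more than 1. Background was the 95th percentile of the fission yeast probe set means. Precision is limited by the 3 arrays per group.

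The tests came from limma 3.58.1 (R 4.3.3, and the package data.table, version 1.17.8), fitting 6 group means on all 18 arrays, 12 residual degrees of freedom, a prior worth 4.4 and 9 comparisons. Calls needed an adjusted p under 0.05, by Benjamini-Hochberg over 5449 genes. Values after ± are standard errors of the fit unless given as SD. P-values rest on the replicates the labels call biological. The genes and lists were chosen with earlier results of these data known. All 34 genes are named. Values on every array are given for the TIR and DAN genes and, by size of difference, up to 5 seripauperins and 6 others per kind of comparison, with PAU5 and CCW14 added after their values were seen. Up to 3 called genes per direction are named from a list. The lists were not read under the alternatives that follow. The method was tested on simulated data. A planned comparison of protein and promoter sequences was not run. Alternatives were another normalization, centring, probe set choice, removal of a trend on coding length (lowess span 0.3), a filter on dim genes, another prior, array weights, only the compared groups, a 2-fold requirement, the replicate number as a block, and leaving out each array. Figures used Python 3.11.15, pandas 2.3.3 and matplotlib 3.10.9.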

Additional observations from a re-analysis of the deposited data

Results flagged for a closer look

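The change from day 2 to day 5 differed between tanks and vials, by limma's test of the difference itself, for 25 of the 34 genes. Of all genes 32.9% were called higher and 25.9% lower. Tank change minus vial change was higher in tanks for PAU24 at 1.38, PAU7 at 1.35, PAU2 at 1.28, PAU23 at 1.25, PAU17 at 1.15, PAU5 at 0.92, PAU9 at 0.73, PAU18 at 0.57 and PAU14 at 0.52. It was lower for PAU21 at -1.24 and PAU3 at -0.72. PAU23 gave 0.01 with its unique probe set. Among the TIR and DAN genes it was 0.61 for TIR4, 0.39 for TIR2, 0.35 for TIR1 and -0.70 for DAN4. With the length trend removed the calls for TIR2 (0.24, adjusted p = 0.116) and TIR1 (0.20, adjusted p = 0.103) were lost.

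For the other wall genes the value was 0.67 for CWP2, 0.55 for PIR3 and 0.48 for CCW14. It was lower in tanks for SRL1 at -2.22, PIR1 at -1.08, CWP1 at -0.65, ECM33 at -0.58, CCW12 at -0.44, CIS3 at -0.40 and SPI1 at -0.33. The call for CIS3 was lost in 12 of 18 fits that leave out 1 array. That for SPI1 was lost without tank day 2 replicate 1 or tank day 5 replicate 3. Limma also lost the SPI1 call with repeated quantile normalization (adjusted p = 0.0662). With the length trend removed the call for CCW14 was lost (0.31, adjusted p = 0.0819).

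The change from day 5 to day 10 differed between the scales for CWP2, at 0.77, and CCW12, at 0.71. Both rose in tanks, though the CWP2 rise was not called by limma with the length trend removed (0.25, adjusted p = 0.141). In vials CWP2 fell by 0.34, a call lost without any 1 of 4 arrays, and CCW12 was not called.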

How the results depend on the processing

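Of 176 calls over the 34 genes and 9 comparisons, 2 turned sign under an alternative: CCW12 between scales on day 2 (0.26 with the length trend removed) and PAU23 from day 5 to day 10 in vials (-0.22 with its unique set). Leaving out dim genes or using a trended, robust prior ended none of the 176, and quantile normalization ended 11, median centring 8, the length trend 28 and the compared groups alone 19. Quantile normalization moved the median of all genes on day 2 from -0.01 to 0.11 and left 1 seripauperin called from day 2 to day 5 in tanks.

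Only PAU5, PAU17 and PAU23 have unique sets. With these the calls between scales were 2, 3 and 3 on days 2, 5 and 10, those with time 3 and 1 in vials and 1 and 0 in tanks, and 2 for the difference between scales from day 2 to day 5. The set difference was then 0.34 and -0.39 in vials on days 2 and 10 and 0.21 and 0.19 in tanks on days 5 and 10. So few genes were tested that these counts cannot be set against 13.

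With the length trend removed, seripauperin calls were 4 from day 5 to day 10 in vials, 7 (6 of them lower) and 2 for the tank changes, and 3 for the later difference between scales. Other wall genes gave 4 and 4 from day 5 to day 10 in vials and tanks. The set difference was -0.96 and -0.60 in vials on days 5 and 10 and 0.71 and 0.52 in tanks on days 2 and 5. By the median over genes it was 0.051 and -0.19 in vials on days 2 and 10 and 0.26 in tanks on day 2. Why these moved was not tested.

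The trended, robust prior called 4 seripauperins from day 2 to day 5 in tanks and 5 for the later difference between scales. With array weights that difference was called for 7 seripauperins and 10 others. The fit of the compared groups alone, with fewer arrays, called 5 and 4 other genes from day 5 to day 10 in vials and tanks.

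Requiring a 2-fold change left 5 seripauperins between scales on day 2, 7 and 0 with time in vials, 0 and 0 in tanks, and 6 for the earlier difference between scales. Of the other wall genes it left 7, 3 and 3 between scales, 2 and 0 with time in vials, 1 and 0 in tanks, and 2 and 0 for the differences between scales.

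Leaving out 1 array at a time gave 12 to 13, 12 to 13 and 13 seripauperins between scales, 12 and 6 to 10 with time in vials, 1 to 2 and 1 in tanks, and 11 to 12 and 0 to 2 for the differences between scales. Other wall genes gave 15 to 18, 13 to 15 and 14 to 16 between scales, 7 to 11 and 4 to 11 in vials, 10 to 13 and 5 to 8 in tanks, and 12 to 14 and 2 to 3 for the differences. The 7 was without vial day 2 replicate 2.

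With the replicate number as a block, 5 of the 176 calls were lost and no count moved by over 1.5 times. The lost calls were CIS3 in the earlier difference between scales (adjusted p = 0.0671) and in tanks to day 5 (0.0649), PAU3 in vials to day 10 (0.0527), PST1 in vials to day 5 (0.0676) and YGP1 in tanks to day 10 (0.0511). Seripauperin calls between scales were 13, 12 and 13 with the block. Same-numbered arrays correlated from -0.472 to 0.756 in their deviations, none of 15 pairs of groups had all 3 above 0.1, and the best match had the same number in 23 of 90 cases, so the numbers were not taken to pair samples.

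Shared probes limit single seripauperins, and signals near the top of the range limit what the brightest genes can show.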
